A study of Homo sapiens with 44 samples.

Results

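The 8 genes described here, PLAU, PLAUR, PLAT, SERPINE2, SERPINB2, TFPI, TFPI2 and F3, encode the activators of plasminogen, their receptor and inhibitors, and the starter and brakes of the extrinsic coagulation pathway. They were chosen by name, with earlier results of these data known. Counts and medians of the members are therefore set beside those of all genes as description only. All 8 were found among the 58735 genes of a table of read counts and among the 27315 gene symbols of a table of variance-stabilised values. RNA was measured by polyA sequencing in 14 libraries of human triple-negative breast cancer lines, in 7 groups of 2 biological replicates, each 48 h after transfection with 20 nM siRNA. In a first experiment MDA-MB-231 cells received siRNA against RELA (siRelA), siRNA against RELB (siRelB) or control siRNA. In a second experiment SUM149 cells received siRNA against EZH2 (siEZH2) or control siRNA, and MDA-MB-231 cells received siEZH2 or control siRNA. RELA and RELB encode NF-kB transcription factors, and EZH2 encodes the histone H3 lysine methyltransferase of the Polycomb repressive complex. Every comparison therefore rests on 2 libraries against 2, on transient knockdown of 1 dose and 1 time, and on siRNAs for which the labels state no sequence. The 30 chromatin immunoprecipitation samples of the series were not analysed here.

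Plasminogen circulates as an inactive proenzyme and becomes plasmin, a protease that digests fibrin and matrix, when urokinase (PLAU) or tissue-type plasminogen activator (PLAT) cleaves it. Urokinase works at the cell surface on its receptor PLAUR, and serpins such as SERPINE2 (protease nexin) and SERPINB2 (plasminogen activator inhibitor type 2) block the activators. Tissue factor (F3) is the receptor that starts coagulation by binding factor VII, TFPI is the Kunitz-type inhibitor that shuts that reaction down, and TFPI2 is a related Kunitz inhibitor that acts mainly on plasmin and trypsin-like proteases in the matrix.

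The promoters of 4 members are shown because these genes moved in opposite directions under siEZH2: PLAU, TFPI2 and F3 rose in both lines and TFPI fell in both, from very few reads in SUM149 cells. Each run is the 250 bases before the RefSeq start site nearest to the start of the gene's reference transcript, from RefSeq on GRCh38.p14, 5′ to 3′ on the strand of the gene, with CG dinucleotides in capitals.
PLAU promoter, chr10:73910882-73911131, plus strand: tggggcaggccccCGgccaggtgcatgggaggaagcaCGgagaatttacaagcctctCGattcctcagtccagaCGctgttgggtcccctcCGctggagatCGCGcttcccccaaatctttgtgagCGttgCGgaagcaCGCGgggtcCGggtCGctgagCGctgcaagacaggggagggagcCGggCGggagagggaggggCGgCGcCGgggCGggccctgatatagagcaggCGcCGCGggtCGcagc
TFPI2 promoter, chr7:93890754-93891003, minus strand: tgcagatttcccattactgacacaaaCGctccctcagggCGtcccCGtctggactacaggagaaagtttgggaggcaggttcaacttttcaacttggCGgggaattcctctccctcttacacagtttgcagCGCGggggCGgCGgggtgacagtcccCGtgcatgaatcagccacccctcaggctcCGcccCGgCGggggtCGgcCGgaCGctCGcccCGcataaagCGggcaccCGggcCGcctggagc
F3 promoter, chr1:94541760-94542009, minus strand: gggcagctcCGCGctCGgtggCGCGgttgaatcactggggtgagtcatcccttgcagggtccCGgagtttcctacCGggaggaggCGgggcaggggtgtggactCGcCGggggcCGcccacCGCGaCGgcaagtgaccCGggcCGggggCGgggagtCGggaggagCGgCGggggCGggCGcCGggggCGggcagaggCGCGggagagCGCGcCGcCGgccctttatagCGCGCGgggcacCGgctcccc
TFPI promoter, chr2:187554436-187554685, minus strand: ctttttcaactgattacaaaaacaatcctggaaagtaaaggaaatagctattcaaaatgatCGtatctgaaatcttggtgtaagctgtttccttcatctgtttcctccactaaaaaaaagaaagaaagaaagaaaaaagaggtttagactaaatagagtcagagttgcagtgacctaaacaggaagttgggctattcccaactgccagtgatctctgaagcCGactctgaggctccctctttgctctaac

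These windows differ in CG content. The PLAU window holds 24 CG dinucleotides, the TFPI2 window 20 and the F3 window 34, against 2 in the TFPI window. Over all 35116 promoter windows of that length the median was 11, with quartiles of 3 and 23. Of the members whose windows are not printed, PLAUR had 13, SERPINE2 28 and SERPINB2 0. PLAU and SERPINE2 each have a further RefSeq start site, with only 4 and 6 CG dinucleotides in the window before it. The SERPINE2 window with 28 lies before position 224038640, whereas its reference transcript starts at 224039286. The CG content of these 2 genes thus depends on the start site used. The 4 printed windows were picked for their direction under siEZH2 and do not stand for all members: PLAUR, near the median, rose in both lines, and SERPINE2 rose in SUM149 cells but passed no test in MDA-MB-231 cells. No window of PLAT, which rose the most in MDA-MB-231 cells, was used here.

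Short motifs were searched on both strands of the windows of the 7 members other than PLAT. The NF-kB consensus, which 10.0% of all windows hold, matched only in TFPI2 among these 7, from base -152 relative to the start site. TGANTCA, a loose form of the AP-1 motif in which N is any base, was held by 6.6% of all windows. It matched as tgagtca in F3 at -210 and in PLAUR at -186. It matched as tgaatca in F3 at -223, in SERPINB2 at -102 and in TFPI2 at -87. GGGCGG, the GC box, which 42.6% of all windows hold, matched in PLAU, SERPINE2, TFPI2 and F3, and none of the 3 motifs matched in TFPI. None of the 3 motifs overlapped another in the TFPI2 window. A match of letters is a description of the window and was not tested as a binding site, and no match says only that these letters are not in it.

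A second set of sequences is shown because it touches 2 of the falls reported next. Transfected siRNAs can lower transcripts whose 3′ UTR pairs with the first bases of the siRNA, as background. All 7-base words held by the 3′ UTRs of at least 300 tested genes were therefore ranked by how much more often genes with the word were called lower than genes without it. Sites are given with 11 bases on each side, in GRCh38 coordinates of GENCODE v44, with the word in capitals.
PLAU 3′ UTR, chr10:73917353-73917381, plus strand: ccttccttttaGCCTAGTtcatccaatcc
TFPI 3′ UTR, chr2:187466187-187466215, minus strand: cctttatggaaACAAGAAgttttatggca
TFPI 3′ UTR, chr2:187466126-187466154, minus strand: atactatgcttCCCAATAttttttcttac

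GCCTAGT, in the PLAU site, ranked first of 12786 words for falls under siRelA: 34.0% of the 724 genes with it were called lower, against 10.8% of the 11983 genes without it. Under siRelB the shares were 18.0% and 12.4%. The median log2 change under siRelA was -0.2 for genes with the word and 0.02 for genes without it. PLAU was the only member with this word. ACAAGAA, in the first TFPI site, ranked first for falls under siRelB, with 22.8% of 1881 genes called lower, 11.8 percentage points more than among the 10826 others. CCCAATA, in the second TFPI site, ranked first of 12396 words for falls under siEZH2 in both lines, with 39.4% of 784 genes against 27.7% of the others in SUM149 cells, and 44.4% against 25.9% in MDA-MB-231 cells. TFPI was the only member with either word. Median changes with and without ACAAGAA were -0.11 and 0.02 under siRelB. Those with and without CCCAATA under siEZH2 were -0.06 and 0.0 in SUM149 cells, and -0.1 and 0.01 in MDA-MB-231 cells. Some word always ranks first in such a search, TFPI has the longest 3′ UTR of the members (2706 bases), and the part of these words in the falls of PLAU and TFPI was not tested. The words that ranked first for rises were in no member. AATACAA, which ranked next to the first for rises under siEZH2 in both lines (39.6% of genes with it called higher against 27.3% without it in SUM149 cells, and 41.8% against 26.9% in MDA-MB-231 cells), is in the 3′ UTRs of SERPINE2, TFPI and TFPI2, of which TFPI fell in both lines.

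**Figure D1:**
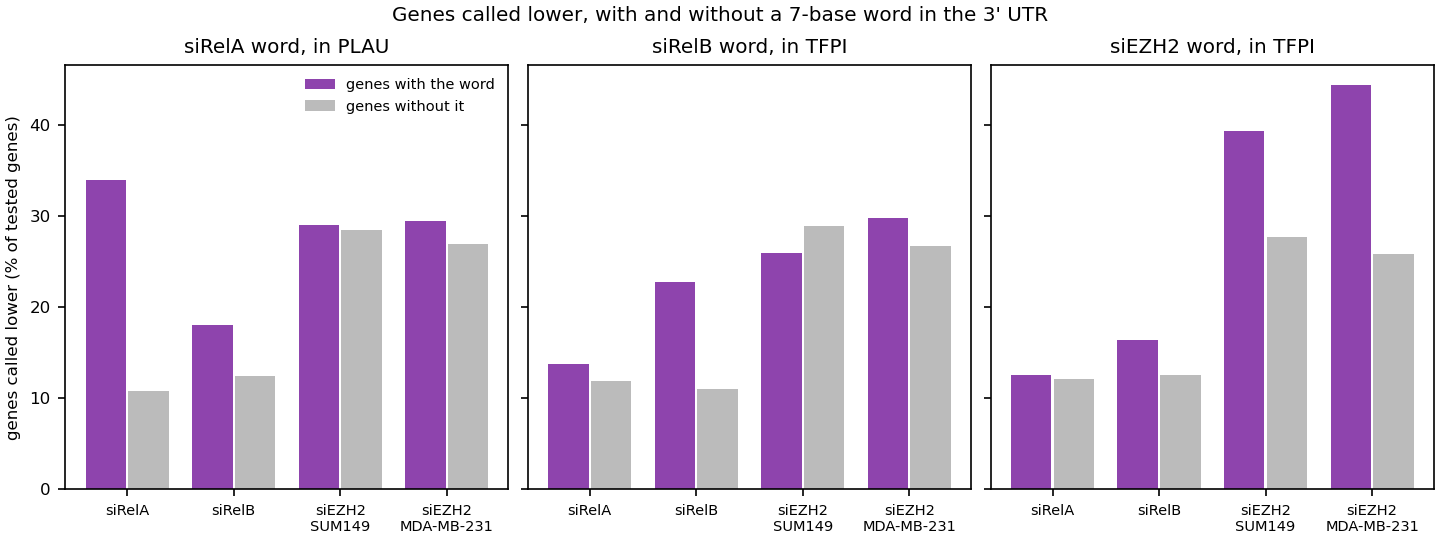
Percentage of tested genes called lower (y axis, from 0) among genes with a 7-base word in their 3′ UTR (purple) and genes without it (grey), in 4 comparisons with control (x axis). The left panel is the word found in PLAU and the other 2 panels are the words found in TFPI. The gap between the bars is widest for the PLAU word under siRelA, at 34.0% against 10.8%.

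The targeted genes were checked first. RELA had 10.7 and 12.5 CPM (counts scaled by TMM library size) in siRelA cells, against 154 and 150 CPM in control cells, and RELB had 4.77 and 5.40 CPM in siRelB cells, against 39.8 and 40.4 CPM in control cells. EZH2 had normalised counts of 442 and 517 in siEZH2 SUM149 cells, against 2563 and 2746 in control SUM149 cells, and 368 and 298 in siEZH2 MDA-MB-231 cells, against 3022 and 3020 in control MDA-MB-231 cells. RELB also had 15.3 and 13.4 CPM in siRelA cells, a log2 change of -1.48 ± 0.14 against control (SE; edgeR adjusted p = 1.6e-06), and it was lower under siEZH2 by 0.50 ± 0.08 in SUM149 and 1.02 ± 0.08 in MDA-MB-231 cells on the variance-stabilised scale (limma adjusted p = 1.1e-04 and 1.7e-07). The siRelA and siEZH2 groups thus also held less RELB RNA. Read depth was 18.6 to 24.4 M counts per library in the first experiment and about 17.4 to 38.1 M reads, recovered from the values, in the second.

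Markers of the lines and of other cells were read beside the members. MDA-MB-231 libraries had no KRT5 or KRT14 read in the first experiment, and mean VIM was 971 to 1126 CPM. SUM149 libraries had KRT5 at mean normalised counts of 1858 with siEZH2 and 1021 in control, but CDH1, the epithelial cadherin, at only 152 and 109, and KRT14 at 3.01 and 0.82. The mesenchymal genes VIM (84340 and 63520) and CDH2 (5420 and 5187) were high in them, and mean CDH2 in MDA-MB-231 cells was 66.1 with siEZH2 and 124 in control. The libraries labelled SUM149 thus held few reads of some markers of a basal epithelial line and many of some mesenchymal ones; the line is named here as labelled, its identity was not tested, and each difference between the lines is between libraries so labelled. The 7 endothelial markers summed to 8.09 to 10.8 normalised counts in siEZH2 SUM149 cells and 3.27 to 4.50 in control SUM149 cells, and to 1350 to 1451 in siEZH2 MDA-MB-231 cells and 972 to 1033 in control MDA-MB-231 cells. CDH5, the endothelial cadherin, was at 0 in every group but control MDA-MB-231 cells of the second experiment, at 0.42. The 7 leukocyte markers summed to more with siEZH2 in both lines (5239 to 5626 against 2068 to 2487 in SUM149; 3478 to 3575 against 1500 to 1788 in MDA-MB-231). CD68 made up most of each sum, and mean PTPRC was 0 and 0.58 in siEZH2 and control SUM149 cells and 0.70 and 1.24 in siEZH2 and control MDA-MB-231 cells. The 7 fibroblast markers also summed to more with siEZH2 (4634 to 4875 against 2217 to 2351 in SUM149, mostly DCN; 653 to 707 against 331 to 348 in MDA-MB-231), and in the first experiment to 67.0 to 80.6 CPM in siRelA, 46.3 to 55.0 CPM in siRelB and 42.9 to 45.5 CPM in control cells. The leukocyte markers summed to 17.1 to 17.2 CPM in siRelA, 8.86 to 9.74 CPM in siRelB and 11.96 to 12.89 CPM in control cells, and the endothelial markers to 67.1 to 85.7, 88.6 to 104 and 73.6 to 82.3 CPM in the same order of groups. The part of these markers in the members' changes was not tested.

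The first question was what RelA knockdown did to these genes in MDA-MB-231 cells. PLAU fell the most of the 8, to a mean 5.47-fold below control, and PLAUR, PLAT and TFPI2 fell 1.35- to 1.43-fold, while F3, TFPI and the 2 serpins did not pass the test. In all 4 of 8 members were called lower and 0 higher, where 10.2% of the 15930 genes tested were called lower, 8.82% higher and 19.0% in either direction. The median log2 change of the members was -0.36, against 0.02 over all genes tested.

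PLAU, the urokinase gene (ENSG00000122861, chr10:73909177-73917496, plus strand), had 3029 and 3368 counts (123 and 153 CPM) in siRelA cells, against 18092 and 16533 counts (780 and 730 CPM) in control cells. Both siRelA libraries lay far below both controls, a log2 change of -2.45 ± 0.10 (SE; edgeR adjusted p = 5.8e-11). This is the gene whose 3′ UTR holds the word most tied to falls under siRelA. Genes with that word had a median log2 change of only -0.2. As in every comparison of these bulk samples, fewer cells of a type and less RNA per cell cannot be told apart. Reads of the opposite-strand gene C10orf55, which shares 915 exonic bases with PLAU, reached at most 42 in a library.

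PLAUR, the urokinase receptor (ENSG00000011422, chr19:43646095-43670547, minus strand), had 2063 and 2047 counts (83.5 and 93.1 CPM) in siRelA cells, against 2995 and 2742 counts (129 and 121 CPM) in control cells. The groups did not overlap, and the log2 change was -0.50 ± 0.09 (edgeR adjusted p = 9.9e-04). PLAT, tissue-type plasminogen activator (ENSG00000104368, chromosome 8, minus strand), had 3604 and 3948 counts (146 and 180 CPM) in siRelA cells, against 5249 and 4825 counts (226 and 213 CPM) in control cells. The siRelA libraries again lay below both controls, with replicate 1 the lower, and the log2 change was -0.43 ± 0.10 (edgeR adjusted p = 0.00455).

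TFPI2, the matrix-bound Kunitz inhibitor (ENSG00000105825, chr7:93885396-93890753, minus strand), had 1078 and 917 counts (43.6 and 41.7 CPM) in siRelA cells, against 1260 and 1536 counts (54.3 and 67.8 CPM) in control cells. The 2 controls were further apart than the 2 siRelA libraries but did not reach down to them. The log2 change was -0.52 ± 0.11 (edgeR adjusted p = 0.00427), and it was no longer called without control replicate 2 (-0.36, adjusted p = 0.101).

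The other 4 members did not pass the test under siRelA. F3, tissue factor (ENSG00000117525, chr1:94529173-94541759, minus strand), had 17329 and 16591 counts (701 and 755 CPM) in siRelA cells, against 18197 and 18447 counts (784 and 814 CPM) in control cells. Its groups did not overlap, but the log2 change was only -0.13 ± 0.08 (edgeR adjusted p = 0.265). TFPI (ENSG00000003436, chr2:187464230-187565760, minus strand) had 1749 and 1612 counts (70.8 and 73.3 CPM) in siRelA cells, against 1434 and 1362 counts (61.8 and 60.1 CPM) in control cells. Both siRelA libraries were above both controls, but the log2 change of 0.24 ± 0.10 did not pass (edgeR adjusted p = 0.104). SERPINE2 (ENSG00000135919, chr2:223975045-224039318, minus strand) had 641 and 580 counts (25.9 and 26.4 CPM) in siRelA cells, against 589 and 440 counts (25.4 and 19.4 CPM) in control cells. The groups were next to each other without overlap, with a log2 change of 0.22 ± 0.14 (edgeR adjusted p = 0.317). SERPINB2 (ENSG00000197632, chr18:63871692-63903888, plus strand) was the least abundant member in these cells, with 130 and 173 counts (5.26 and 7.87 CPM) in siRelA cells and 182 and 183 counts (7.85 and 8.08 CPM) in control cells. Its groups overlapped after scaling for depth, and the log2 change was -0.28 ± 0.26 (edgeR adjusted p = 0.515).

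RelB knockdown gave another set of calls. SERPINB2, TFPI and PLAT fell and SERPINE2 rose, and neither PLAU nor PLAUR passed the test. This was 3 members lower and 1 higher, where 18.3% of the 15930 genes were called in either direction, 10.8% lower and 7.45% higher. The median log2 change of the members was -0.14, against 0.01 over all genes tested. The control libraries are the same 2 as for siRelA.

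TFPI had 618 and 708 counts (32.8 and 35.7 CPM) in siRelB cells, against 1434 and 1362 counts (61.8 and 60.1 CPM) in control cells. The groups stood well apart. The mean CPM was 1.78-fold lower in siRelB cells, a log2 change of -0.83 ± 0.10 (edgeR adjusted p = 2.8e-05). TFPI is the member with the word most tied to falls under siRelB. Genes with that word had a median log2 change of only -0.11.

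SERPINB2 had 51 and 87 counts (2.71 and 4.39 CPM) in siRelB cells, against 182 and 183 counts (7.85 and 8.08 CPM) in control cells. The controls were nearly equal and the 2 siRelB libraries were both lower, though they differed from each other. The mean CPM was 2.24-fold lower, a log2 change of -1.16 ± 0.27 (edgeR adjusted p = 0.00677). Without siRelB replicate 1, the lower library, the change was -0.86 and was not called (adjusted p = 0.055). Part of the SERPINB2 exons, 547 bases, is shared on the same strand with another gene model, not analysed here.

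PLAT had 2911 and 3258 counts (154 and 164 CPM) in siRelB cells, against 5249 and 4825 counts (226 and 213 CPM) in control cells. It fell by 0.46 ± 0.10 on the log2 scale (edgeR adjusted p = 0.00304), and its groups did not overlap. SERPINE2 had 596 and 622 counts (31.6 and 31.4 CPM) in siRelB cells, against 589 and 440 counts (25.4 and 19.4 CPM) in control cells. The siRelB libraries were nearly equal and above both controls, which differed. Its log2 change of 0.49 ± 0.14 was called (edgeR adjusted p = 0.0226), but not without control replicate 2 (0.30, adjusted p = 0.327) or without either siRelB replicate (0.48 in each, adjusted p = 0.0745 and 0.0667).

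PLAU had 11935 and 13690 counts (633 and 691 CPM) in siRelB cells, below the 780 and 730 CPM of the controls without overlap, and its log2 change of -0.19 ± 0.09 did not pass (edgeR adjusted p = 0.186). PLAUR had 121 and 131 CPM in siRelB cells, against 129 and 121 CPM in control cells (0.01 ± 0.09, edgeR adjusted p = 0.954). TFPI2 had 65.5 and 61.7 CPM in siRelB cells, against 54.3 and 67.8 CPM in control cells (0.06 ± 0.11, edgeR adjusted p = 0.773), and F3 had 712 and 786 CPM in siRelB cells, against 784 and 814 CPM in control cells (-0.09 ± 0.08, edgeR adjusted p = 0.458). These 3 genes overlapped between the groups. F3 remained the most abundant member per length in all 3 groups, at mean RPKM (reads per kilobase of reference transcript, scaled as CPM) of 317 in siRelA, 326 in siRelB and 348 in control cells. PLAU ranked next in siRelB and control cells, at 283 and 322 RPKM, but stood at 58.9 ± 9.23 RPKM in siRelA cells, within the spread of PLAUR at 64.5 ± 4.96 and PLAT at 53.1 ± 7.78 (SD, n = 2).

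**Figure D2:**
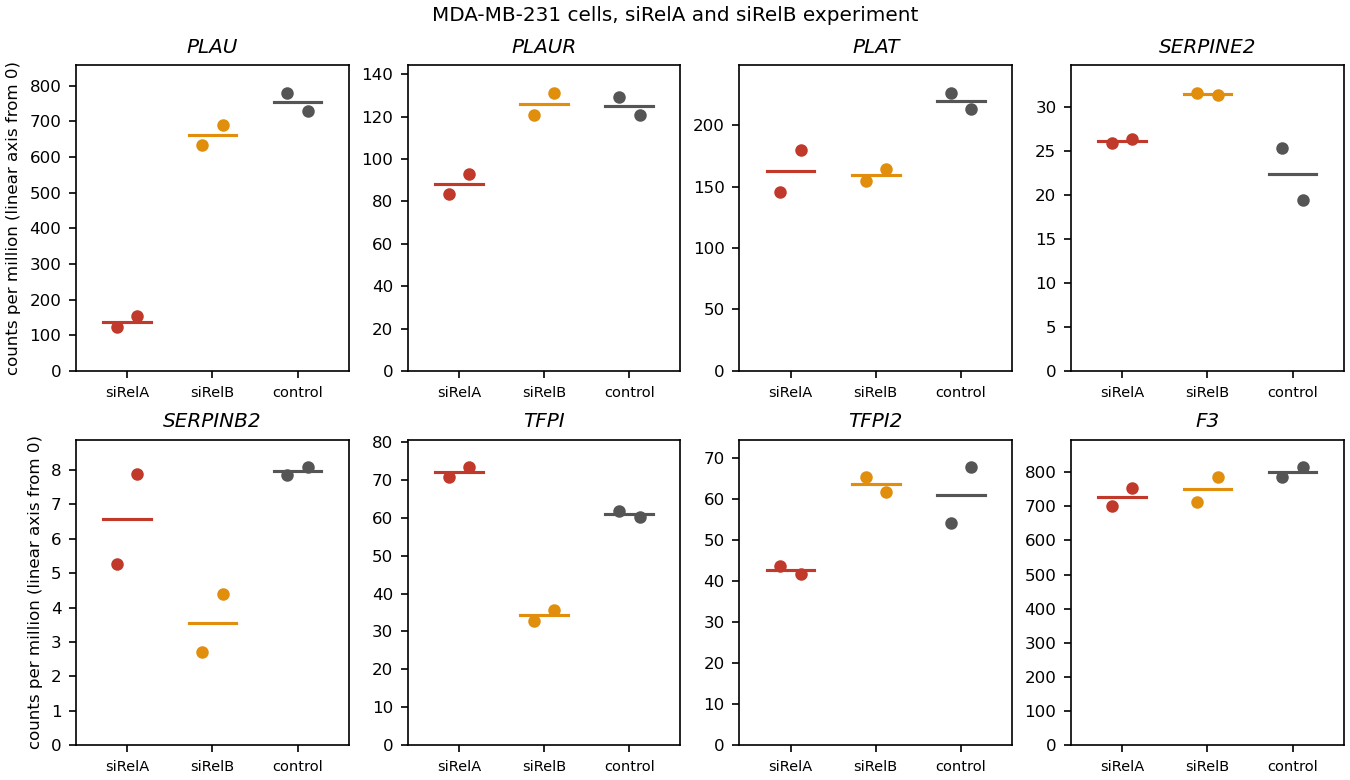
CPM (y axis, linear from 0) of the 8 members in MDA-MB-231 cells with siRelA (red), siRelB (orange) or control siRNA (grey); each dot is 1 library and the bar is the mean of 2. PLAU is lowest in the siRelA libraries, at 123 and 153 CPM, and TFPI is lowest in the siRelB libraries, at 32.8 and 35.7 CPM.

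Set against each other, the knockdowns differed in 5 of the 8 members, where 29.9% of all genes tested differed, 16.0% higher and 14.0% lower in siRelA than in siRelB cells. PLAU (-2.26 ± 0.10), PLAUR (-0.51 ± 0.09) and TFPI2 (-0.58 ± 0.12) were lower in siRelA than in siRelB cells on the log2 scale (edgeR adjusted p = 2.0e-10, 5.1e-04 and 0.0012). TFPI was higher in siRelA than in siRelB cells by 1.07 ± 0.10 (edgeR adjusted p = 9.5e-07), a 2.10-fold difference in mean CPM. SERPINB2 was higher by 0.88 ± 0.28 (edgeR adjusted p = 0.0232), a call lost in a fit of these 2 groups alone (0.87, adjusted p = 0.0607) and without siRelA replicate 2 or siRelB replicate 1 (0.56 and 0.57). PLAT (0.03 ± 0.10), SERPINE2 (-0.27 ± 0.14) and F3 (-0.04 ± 0.08) did not pass this test.

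The second experiment asked what EZH2 knockdown did in each line. The values are variance-stabilised, a log2-like scale on which differences shrink for genes with few reads. Tests were made on that scale, and the normalised counts printed here were obtained by inverting the transformation. The majority of all genes were called, 58.0% of 12356 in SUM149 cells and 56.6% in MDA-MB-231 cells, so a call alone does not set a member apart, and the sizes and directions are given instead.

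In SUM149 cells 6 members rose and 1 fell with siEZH2, where 29.4% of all genes were called higher and 28.6% lower. The members' median difference was 0.66, against 0.00 over all genes tested. TFPI2, PLAU, F3 and SERPINE2 rose by about 2-fold or more, PLAUR less, PLAT slightly, and SERPINB2 did not pass.

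TFPI2 had normalised counts of 14485 and 15183 in siEZH2 SUM149 cells, against 4003 and 4251 in control SUM149 cells. The 2 groups were far apart. The mean was 3.59-fold higher, a difference of 1.78 ± 0.06 on the variance-stabilised scale (limma adjusted p = 2.5e-10). PLAU had 15596 and 15399 in siEZH2 SUM149 cells, against 5395 and 6193 in control SUM149 cells. The siEZH2 libraries were nearly equal, both far above the controls, and the mean was 2.67-fold higher (1.38 ± 0.06, limma adjusted p = 2.8e-09).

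F3 had normalised counts of 9644 and 10254 in siEZH2 SUM149 cells, against 4623 and 4727 in control SUM149 cells, a 2.13-fold higher mean (1.05 ± 0.05, limma adjusted p = 5.9e-09). SERPINE2 had 4187 and 4045 in siEZH2 SUM149 cells, against 2085 and 2210 in control SUM149 cells, a 1.92-fold higher mean (0.86 ± 0.06, limma adjusted p = 1.1e-07). In both genes the siEZH2 libraries lay well clear of the controls. PLAUR had 3490 and 3149 in siEZH2 SUM149 cells, against 2376 and 2307 in control SUM149 cells (0.46 ± 0.06, limma adjusted p = 3.3e-05). PLAT had 7208 and 6750 against 6001 and 6232 in control SUM149 cells, without overlap, and its small difference of 0.18 ± 0.06 (limma adjusted p = 0.0159) was not called without control replicate 1 or without siEZH2 replicate 1 of that line (0.16 and 0.14, adjusted p = 0.0956 and 0.131).

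SERPINB2 had normalised counts of 595 and 596 in siEZH2 SUM149 cells, against 477 and 545 in control SUM149 cells. The groups did not overlap, and the difference of 0.16 ± 0.07 just missed the threshold (limma adjusted p = 0.0578); it passed with no variance trend (adjusted p = 0.0433) and without control replicate 2 (0.22, adjusted p = 0.0222). TFPI was close to the lowest value of the table in every SUM149 library. Its values were 7.22 and 7.23 with siEZH2 and 7.48 and 7.45 in control SUM149 cells, about 1 and 1 recovered reads against 5 and 7. That difference was called (-0.24 ± 0.06, limma adjusted p = 0.00418), but it rests on 2 reads against 12, a ratio per depth of 0.127 with an exact 95% interval of 0.0138 to 0.571 that covers counting error only.

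In MDA-MB-231 cells 5 members rose and 2 fell with siEZH2, where 29.4% of all genes were called higher and 27.1% lower. The members' median difference was 0.46, against 0.00 over all genes tested. PLAT rose the most, F3 and PLAUR less, TFPI and SERPINB2 fell, and SERPINE2 did not pass.

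PLAT had normalised counts of 10779 and 11831 in siEZH2 MDA-MB-231 cells, against 2833 and 2785 in control MDA-MB-231 cells. All siEZH2 values were several times the controls. The mean was 4.02-fold higher (1.91 ± 0.06, limma adjusted p = 5.8e-11). F3 had 18509 and 18234 in siEZH2 MDA-MB-231 cells, against 10165 and 9715 in control MDA-MB-231 cells, a 1.85-fold higher mean (0.87 ± 0.05, limma adjusted p = 2.5e-08). PLAUR had 3349 and 3708 against 2001 and 2064 in control MDA-MB-231 cells, a 1.74-fold higher mean (0.72 ± 0.06, limma adjusted p = 5.4e-07). Neither gene overlapped between the groups.

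TFPI2 had normalised counts of 1317 and 1392 in siEZH2 MDA-MB-231 cells, against 797 and 868 in control MDA-MB-231 cells (0.57 ± 0.06, limma adjusted p = 2.1e-06). PLAU had 18691 and 19323 in siEZH2 MDA-MB-231 cells, against 14579 and 15092 in control MDA-MB-231 cells, a 1.28-fold higher mean (0.35 ± 0.06, limma adjusted p = 4.1e-04). Both genes were higher in each siEZH2 library than in either control. SERPINE2 had 476 and 433 against 434 and 483 in control MDA-MB-231 cells, which overlap (-0.01 ± 0.06, limma adjusted p = 0.918).

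TFPI had normalised counts of 1483 and 1478 in siEZH2 MDA-MB-231 cells, against 2343 and 2229 in control MDA-MB-231 cells, a 1.54-fold lower mean (-0.55 ± 0.06, limma adjusted p = 5.8e-06). SERPINB2 had 45 and 51 in siEZH2 MDA-MB-231 cells, against 83 and 93 in control MDA-MB-231 cells, a 1.84-fold lower mean (-0.29 ± 0.07, limma adjusted p = 0.00242). Both genes were lower in each siEZH2 library than in either control. On the counts recovered from the values, edgeR gave SERPINB2 a log2 change of -0.88, more than the variance-stabilised difference.

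**Figure D3:**
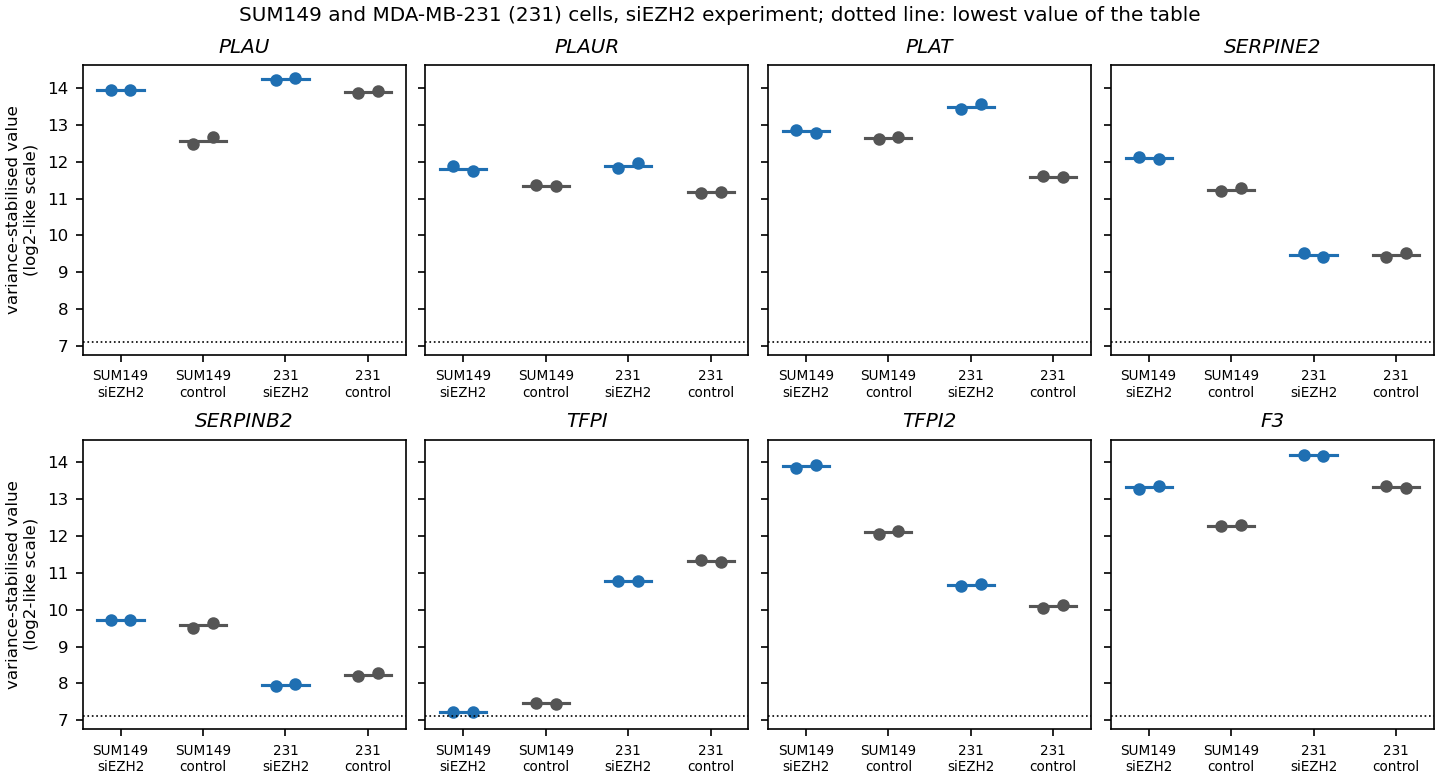
Variance-stabilised values (y axis, log2-like, not starting at 0) of the 8 members in SUM149 cells (left pair) and MDA-MB-231 cells (right pair) with siEZH2 (blue) or control siRNA (grey); dots are libraries, bars are means of 2, and the dotted line is the lowest value of the table, 7.12. TFPI lies near that line in all 4 SUM149 libraries and at 10.77 to 11.35 in MDA-MB-231 libraries.

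The size of the siEZH2 response differed between the lines for 7 of the 8 members by the interaction term, where 21.5% of all genes tested differed, 11.2% upward and 10.4% downward in SUM149 relative to MDA-MB-231 cells; 5 members differed upward and 2 downward. TFPI2 (1.21 ± 0.08), PLAU (1.03 ± 0.09) and SERPINE2 (0.87 ± 0.09) had the larger rise in SUM149 than in MDA-MB-231 cells (limma adjusted p = 7.5e-07, 6.9e-06 and 1.8e-05). PLAT had the smaller rise in SUM149 cells, by 1.73 ± 0.08 (limma adjusted p = 1.1e-07). SERPINB2, which fell in MDA-MB-231 cells and did not pass in SUM149 cells, differed by 0.44 ± 0.09 (limma adjusted p = 0.00469). EZH2 and RELB RNA also fell less in SUM149 than in MDA-MB-231 cells, by 0.51 ± 0.10 and 0.52 ± 0.11 (limma adjusted p = 0.00346 and 0.00443). Mean EZH2 was 5.54-fold lower with siEZH2 in SUM149 and 9.08-fold lower in MDA-MB-231 cells. The part of this unequal knockdown in the members' differences was not tested.

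PLAUR (-0.26 ± 0.09, limma adjusted p = 0.0475) was at the threshold and was not called with no filter on low values, with no variance trend, on recovered counts, or without any 1 of 6 libraries. TFPI (0.31 ± 0.09, limma adjusted p = 0.0223) had a smaller fall in SUM149 than in MDA-MB-231 cells on the variance-stabilised scale, but the sign turned on recovered counts (-2.20, edgeR adjusted p = 0.071). That value rests on about 2 and 12 TFPI reads in the SUM149 groups. The TFPI interaction was not called without any 1 of 4 libraries. F3 did not pass (0.18 ± 0.08, limma adjusted p = 0.117), its rise being 1.05 in SUM149 and 0.87 in MDA-MB-231 cells.

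**Figure D4:**
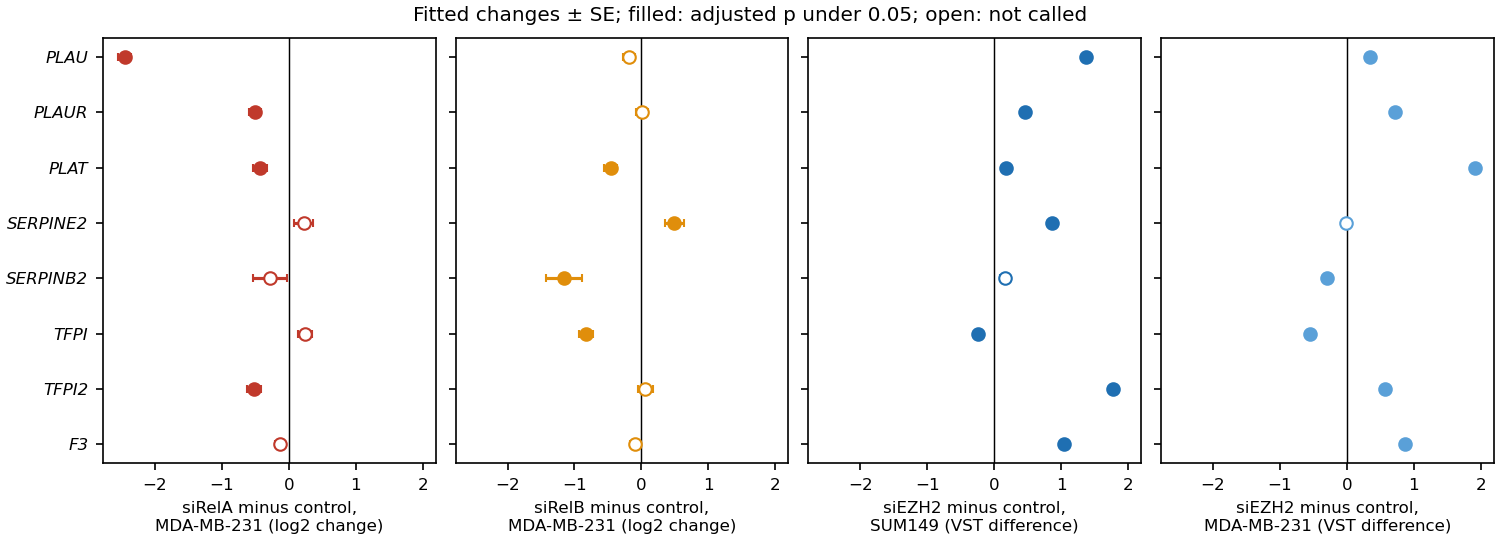
Fitted change of each member (x axis, log2 change for siRelA and siRelB, variance-stabilised difference for siEZH2) with its standard error, knockdown minus control, in 4 comparisons; filled symbols were called at adjusted p under 0.05. PLAU stands at -2.45 under siRelA and at 1.38 and 0.35 under siEZH2 in SUM149 and MDA-MB-231 cells.

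Without knockdown, the lines themselves held these genes at very different levels. All 8 members differed between SUM149 and MDA-MB-231 controls, as did 82.8% of all genes tested, 41.3% higher and 41.5% lower in SUM149. Of the members 5 were higher and 3 lower in SUM149. TFPI differed most: normalised counts were 9 and 8 in SUM149 and 2343 and 2229 in MDA-MB-231 controls, a 283-fold lower mean in SUM149 cells. PLAU (2.56-fold lower in SUM149) and F3 (2.13-fold lower in SUM149) were also lower. SERPINB2 (5.78-fold), TFPI2 (4.96-fold), SERPINE2 (4.68-fold) and PLAT (2.18-fold) were higher in SUM149 than in MDA-MB-231 controls. PLAUR was closest between the lines, at 1.15-fold higher in SUM149 controls, a call lost without either of 2 libraries (0.16 in each, limma adjusted p = 0.09 and 0.0703).

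Per kilobase of reference transcript, the order of levels also differed by group. Whether the deposited values had already been corrected for transcript length is not stated in the labels, which limits the order between genes in this experiment. In siEZH2 SUM149 cells TFPI2 (6721 ± 224 normalised counts per kilobase; SD, n = 2) and PLAU (6614 ± 59.7) led within each other's spread, followed by F3 (4330 ± 188), PLAUR (2426 ± 176) and PLAT (2279 ± 106), the last 2 within their spread. In control SUM149 cells PLAU (2473 ± 241), F3 (2034 ± 31.8), PLAT (1997 ± 53.3), TFPI2 (1870 ± 79.4) and PLAUR (1711 ± 35.7) lay close together. In siEZH2 MDA-MB-231 cells PLAU (8112 ± 191) and F3 (7995 ± 84.6) led within their spread, with PLAT at 3692 ± 243. In control MDA-MB-231 cells PLAU (6332 ± 155) and F3 (4325 ± 138) led and PLAT stood at 917 ± 11.1. SERPINB2 was lowest in MDA-MB-231 cells, at 25.1 ± 2.47 with siEZH2 and 46.4 ± 3.71 in control, and TFPI was lowest in SUM149 cells, at 0.193 ± 0.00445 with siEZH2 and 2.09 ± 0.203 in control. These TFPI values rest on about 1 and 1 recovered reads with siEZH2 and 5 and 7 in control, so their SD does not show the counting error.

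A further 60 genes of the plasminogen and coagulation systems, in 6 lists, give the setting; 39 passed the filter in the first experiment and 34 in the second. Under siRelA 8 rose and 4 fell of 39 (19.0% of all genes called), with a median log2 change of 0.11. SPINT1, a Kunitz inhibitor of membrane proteases, had 123 and 144 counts in siRelA cells, against 52 and 28 in control cells (1.72 ± 0.36, edgeR adjusted p = 0.00276), and was not called without control replicate 2 (1.35, adjusted p = 0.0513). Its target protease ST14 also rose (1.07 ± 0.29, edgeR adjusted p = 0.0151), a call lost without any 1 of 3 libraries.

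Under siRelB 0 rose and 11 fell of 39 (18.3% of all genes called), with a median log2 change of -0.14. In the list of protease-activated receptors and the protein C pathway, which also counts GAS6, a relative of protein S, 5 of 8 fell. They were F2RL1 (-0.82 ± 0.09), the receptor cleaved by tissue factor with factor VII, F2RL3 (-1.09 ± 0.22), thrombomodulin THBD (-0.59 ± 0.12), protein S PROS1 (-0.59 ± 0.18) and GAS6 (-0.29 ± 0.08). F2RL1 had 2661 and 2542 counts in siRelB cells, against 5566 and 5311 in control cells (edgeR adjusted p = 6.9e-06). The PROS1 call was lost without control replicate 2 or siRelB replicate 1. The GAS6 call was lost without control replicate 1 or 2 and without siRelB replicate 1 or 2. Among partner receptors of urokinase, the integrin ITGA3 had 11209 and 10977 counts in siRelB cells, against 34796 and 33631 in control cells (-1.38 ± 0.08, edgeR adjusted p = 7.5e-09), and EGFR fell by 0.82 ± 0.08 (edgeR adjusted p = 3.1e-06).

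Under siEZH2 22 of 34 rose and 6 fell in SUM149 cells (58.0% of all genes called), and 23 rose and 5 fell in MDA-MB-231 cells (56.6%), with medians of 0.31 and 0.28. Of the 12 clearance and partner receptors of urokinase tested, 10 rose and 1 fell in each line. LRP1, the receptor that clears urokinase bound to its inhibitor, rose by 0.98 ± 0.07 in SUM149 and 0.66 ± 0.07 in MDA-MB-231 cells, and the integrin ITGA5 by 1.48 ± 0.07 and 0.74 ± 0.07 (limma adjusted p = 6.6e-08, 2.4e-06, 1.9e-09 and 7.7e-07). Variance-stabilised differences do not rank genes of unlike level. In SUM149 cells LRP1 had normalised counts of 483 and 457 with siEZH2, against 131 and 150 in control. ITGA5 had 15000 and 14400, against 4763 and 5468. The gene that fell was LRPAP1 in SUM149 cells (-0.23 ± 0.07, a call lost without either of 2 libraries) and ITGA3 in MDA-MB-231 cells (-0.82 ± 0.05). THBD, the receptor on which thrombin activates protein C, had normalised counts of 2783 and 2914 in siEZH2 SUM149 cells, against 753 and 719 in control SUM149 cells, and 1412 and 1377 in siEZH2 MDA-MB-231 cells, against 679 and 641 in control MDA-MB-231 cells.

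The membrane serine proteases and their Kunitz inhibitors moved the other way in SUM149 cells, where all 4 tested, ST14 (-0.50), PRSS8 (-0.72), SPINT1 (-0.37) and SPINT2 (-0.99), fell. PRSS8 had normalised counts of 45.0 and 48.6 in siEZH2 SUM149 cells, against 170 and 180 in control SUM149 cells. SPINT2 had 530 and 475, against 1235 and 1235. In MDA-MB-231 cells ST14 (-0.32) and SPINT1 (-0.40) fell, PRSS8 (0.24) rose, with normalised counts of only 11.6 and 9.90 against 1.90 and 1.70, and SPINT2 did not pass. Plasminogen itself, PLG, was listed at 0 in all 14 libraries.

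**Figure D5:**
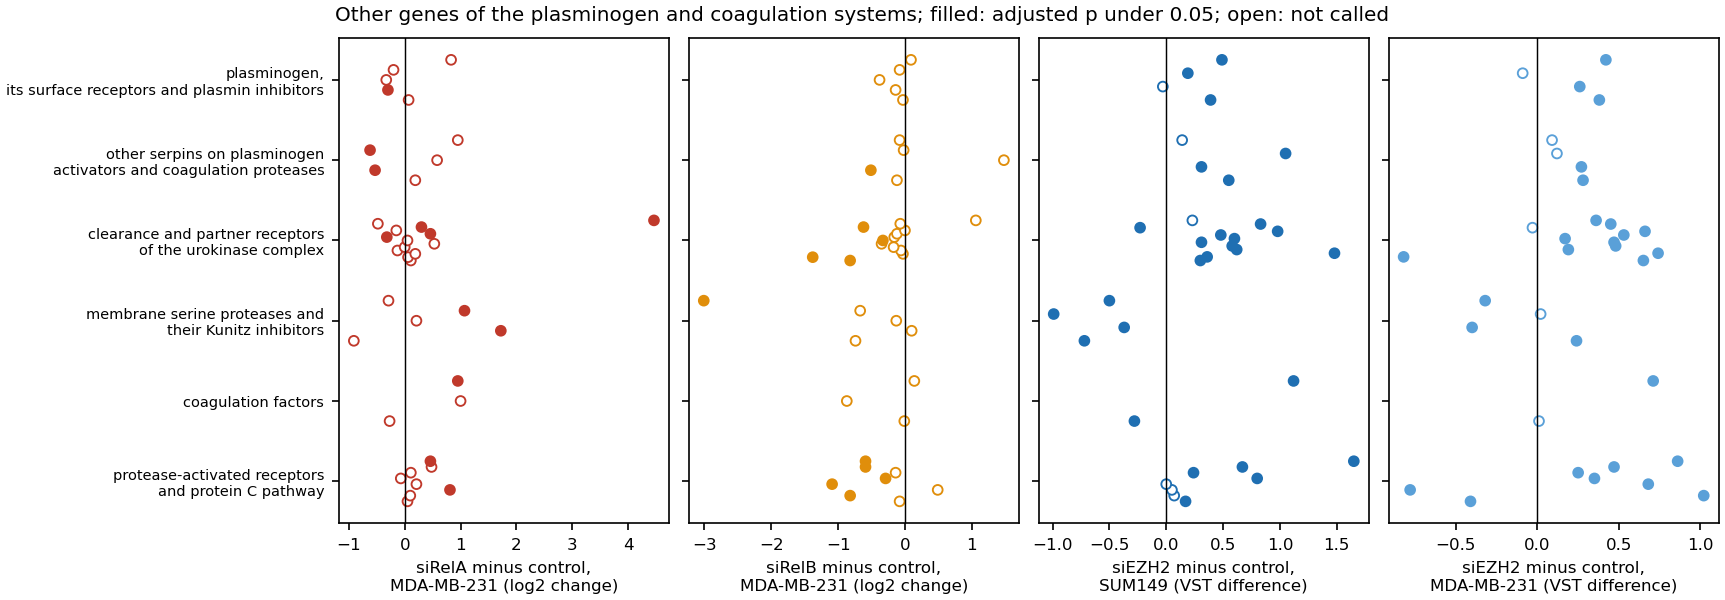
Fitted change (x axis, log2 change or variance-stabilised difference, knockdown minus control; axis ranges differ between panels) of the tested genes of 6 lists (rows), 1 dot per gene; filled dots were called at adjusted p under 0.05. The 4 membrane proteases and inhibitors lie at -0.99 to -0.37 under siEZH2 in SUM149 cells. The dot at 4.46 under siRelA is VTN, which had 16 and 12 counts in siRelA cells and 1 and 0 in control cells. It was not called with no filter on low counts (edgeR adjusted p = 0.1). Its call was also lost without control replicate 1 or 2 (6.7 and 3.62) and without siRelA replicate 1 or 2 (4.3 and 4.56).

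For each member the 3 protein-coding genes with the most similar 4 fitted changes (siRelA, siRelB and siEZH2 in each line; Euclidean distance over the 4 changes, 10853 genes) were listed. PLAU had no close neighbour: SFRP1 (distance 0.97), NRAS (1.06) and MMP9 (1.06) came nearest, and the last had changes of -1.75 under siRelA and 1.55 under siEZH2 in SUM149 cells. PLAT (TMEM123, 0.75; TNC, 0.78; SAMD9L, 0.86) and TFPI2 (SLC46A3, 0.63; NT5E, 0.68; ROBO4, 0.71) were also far from others. TFPI had ZNF680 (0.11), PTPN21 (0.16) and CCNJL (0.17), but these distances use its SUM149 difference of -0.24, which is compressed near the lowest value of the table and was -2.84 as a log2 change on recovered counts. PLAUR had close neighbours in SLC31A2 (0.12), ZBTB34 (0.16) and PGAM1 (0.17). SERPINB2 had STX11 (0.16), DNAJC6 (0.19) and IGF2BP2 (0.21), F3 had PTK6 (0.23), RAC2 (0.23) and ANTXR2 (0.24), and SERPINE2 had WWC3 (0.26), ZFP36L1 (0.26) and GPCPD1 (0.31). The SERPINB2 distances use its MDA-MB-231 difference of -0.29 under siEZH2, which was -0.88 as a log2 change on recovered counts. A small distance is easier to reach for a member with small changes, since many genes lie there.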

How the data were processed

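For the siRelA and siRelB experiment the authors deposited raw counts per Ensembl gene. Build hg19 and the tools DESeq2 1.20.0, featureCounts 1.5.0-p3 and HISAT2 2.0.5 are credited to the submitters' processing notes. For the siEZH2 experiment the authors deposited variance-stabilised log2-like values per symbol, for which those notes list hg19, Salmon, STAR 2.5.2b, DESeq2 and cutadapt. No label or header states strand settings or the annotation release, so reads of overlapping genes cannot be told apart. Positions come from GENCODE v44 (GRCh38), with no conversion of hg19 positions.

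Counts were fitted with edgeR 4.0.16 (quasi-likelihood, TMM, default filter, all 6 libraries, 15930 genes, 3 residual degrees of freedom, biological coefficient of variation 10.1%). The siEZH2 table was fitted with limma 3.58.1 (variance trend, all 8 libraries, 4 residual degrees of freedom) for the 12356 genes that exceeded the table's minimum by 1 or more in 2 or more libraries. Benjamini-Hochberg adjustment ran over all genes tested, and calls needed adjusted p under 0.05. All 8 members passed both filters. Normalised counts were computed by inverting the transformation, with the lowest value, 7.12, as a count of 0. Of values up to 5 reads, 81.2% to 85.2% per library lay within 0.05 of a whole number of reads, so recovered reads are approximate and served as an alternative and to count the reads of TFPI in SUM149 cells. The TFPI values in SUM149 cells did not lie that close to a whole number. Levels per kilobase used the length of the MANE Select transcript, and 3′ UTRs are from the same transcripts.

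The fits were run on simulated data with known changes and the same dispersion or spread for every gene. That setting does not stand for genes near the lowest value, such as TFPI in SUM149 cells. Alternatives were other scaling (RLE, DESeq2, quantile), other filters, other dispersion or variance trends, 2-group fits, a replicate block, recovered counts and leaving out each library. Named genes are the members, the targeted genes, called genes of the 6 lists and each member's 3 nearest genes. A called gene of the lists is counted but not reported by name here. The members and lists were chosen with earlier results of these data known. R was 4.3.3, DESeq2 1.42.0, Python 3.11.15, numpy 2.4.6, pandas 2.3.3, scipy 1.17.1 and matplotlib 3.10.9.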

Additional observations from a re-analysis of the deposited data

Results flagged for a closer look

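The siEZH2 response of 7 members differed between the lines by the interaction term of the limma fit (SUM149 minus MDA-MB-231, variance-stabilised scale). The differences were 1.21 for TFPI2, 1.03 for PLAU, 0.87 for SERPINE2, 0.44 for SERPINB2, 0.31 for TFPI, -0.26 for PLAUR and -1.73 for PLAT. Those of TFPI2, PLAU, SERPINE2, SERPINB2 and PLAT were called under each alternative and without each library in turn, whereas those of PLAUR and TFPI were not. The starting levels of these genes also differed between the lines' controls, with TFPI 283-fold lower in SUM149 cells. EZH2 itself fell less in SUM149 than in MDA-MB-231 cells, 5.54-fold against 9.08-fold. The part of the starting level and of the extent of knockdown in the responses was not tested. No group had the 4 libraries needed to test for a library far from the others.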

How the results depend on the processing

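The number of members called kept within 1.5 times under each alternative, except under siRelB, where leaving out 1 library gave 2 to 4 against 4, the lowest without siRelB replicate 1. Leaving out 1 library gave 3 to 4 under siRelA (4), 4 to 5 for siRelA against siRelB (5), 6 to 8 for siEZH2 in SUM149 (7), 5 to 7 for the interaction (7) and 7 to 8 for the control lines (8). Over all genes, calls under siRelA (3031) were 1624 without control replicate 1 and 1786 without control replicate 2; under siRelB (2913) they were 1754 and 1520 without the same libraries. Interaction calls (2662) were 1624 and 1705 without MDA-MB-231 control replicates 1 and 2. On recovered counts, 64.7% of interaction calls were higher in SUM149, against 51.9% in the limma fit.

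These values changed sign. With no filter on low counts PLAUR was -0.01 under siRelB, and on recovered counts TFPI was -2.20 in the interaction. Leaving out 1 library, these uncalled values took both signs: PLAUR (-0.06 to 0.07) and TFPI2 (-0.10 to 0.22) under siRelB, PLAT (-0.13 to 0.16) and F3 (-0.11 to 0.04) for siRelA against siRelB, and SERPINE2 (-0.06 to 0.04) for siEZH2 in MDA-MB-231 cells. The causes were not tested.

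The labels do not say that replicate numbers pair the libraries, and deviations of same-numbered libraries correlated at -0.207 to 0.0879. With the replicate number as a block, 2958 genes were called under siRelA, 2828 under siRelB, 6937 and 7132 for siEZH2 in MDA-MB-231 and SUM149 cells, and the number of members called was the same in every comparison. The interaction has no fit of 2 groups. With 2 libraries a group, a library left alone in its group is assumed to vary like the others.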
